A study of Pinus pinaster with 24 samples.

Results

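The root cap of maritime pine (Pinus pinaster) seedlings was compared with the developing vascular tissue of the root tip. Of the 24 libraries of the study, 12 were from these areas: 6 from the root cap (library names CRC and NRC) and 6 from the developing vascular area (CRDV and NRDV). Seedlings were 1 month old, of the Segura-Alcaraz provenance, and had been kept for 3 days on a nutrient solution without nitrogen. Roots were taken 2 h after irrigation with 80 mL of 3 mM KCl (the control) or 3 mM KNO3 (NO3K in the labels). Areas were cut by laser from 30 µm frozen sections, chosen by position, so each is an approximate region that may hold several cell types. Each area had 3 libraries with KCl and 3 with nitrate, and libraries with the same solution and experiment number were matched across areas, which gave 6 sets, called root-tip sets here although the labels do not say what a number shares.

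The root cap is the sheath of cells over the growing tip. It protects the meristem, senses gravity through starch-filled plastids and secretes mucilage as its outer cells are shed. Behind the meristem, the vascular cylinder forms xylem, which in conifers carries water and minerals through tracheids with lignified walls, and phloem, which brings sugars to the tip. Nitrate taken up at the surface is loaded into the xylem for transport to the shoot. The table used here lists transcript IDs without gene names, so the labelled areas could not be checked against marker genes, and the transcripts below are described by level only. In captured tissue, fewer cells of a type and less RNA per cell cannot be told apart.

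The 12 libraries held 45466968 to 51212313 recovered reads, and 2.91% to 5.163% of the 51211 listed transcripts had no read in a library. Values are scaled reads that the authors named CPM, in which 1 read was worth 0.0181 to 0.0247 CPM in these libraries. The largest transcripts took more of the cap libraries. The 10 largest transcripts of each library held 8.05% to 9.33% of the column total in the cap and 3.18% to 4.13% in the vascular area. The means were 8.77% ± 0.484 and 3.67% ± 0.41 (SD, n = 6 each), with no overlap. The share was higher in the cap in 6 of 6 sets, a difference of 5.09 ± 0.662 percentage points (SD of the 6 differences). An exact two-sided permutation test over the 6 pairs gave p = 0.03125, the smallest possible, and an adjusted p of 0.0625 over 4 measures, which did not pass 0.05. The 100 largest held 21.8% ± 1.81 in the cap and 15.3% ± 1.84 in the vascular area (SD, n = 6 each, the same exact p and adjusted p). Measures of breadth did not pass either. In the cap, 1264 ± 146 transcripts made up 50% of the total, and in the vascular area 1441 ± 260 did (SD, n = 6 each, exact permutation p = 0.1875, adjusted p = 0.25). The share of transcripts with 0 reads was 3.56% ± 0.839 and 3.88% ± 0.267 (exact permutation p = 0.375, also when adjusted).

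Most transcripts differed between the cap and the vascular area. Of 49609 transcripts tested by limma with each root-tip set as a block, 39412 passed an adjusted p of 0.05 (79.4%), with 19129 higher in the cap (38.6%) and 20283 lower (40.9%). The median difference was 1.58 on the log2(CPM + 0.5) scale for the higher and -1.44 for the lower transcripts. In 35882 of the 39412, all 6 sets pointed the same way. Among all 49609 tested, 17606 were higher in the cap in all 6 sets and 18882 were lower. The calls were made from these same 6 differences. The 6 cap values and the 6 vascular values did not overlap at all in 14151 transcripts higher in the cap and 15003 lower, 58.8% of those tested. A difference beyond 2-fold, tested as such with limma's treat, was called for 10134 higher (20.4%) and 10007 lower (20.2%) transcripts. The slight surplus of lower calls depended on the scaling: median-of-ratios scaling gave 19802 higher and 19524 lower, and division of each column by its own total gave 17081 and 22851.

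Transcripts higher in the cap held 73.1% ± 3.5 of the cap totals and 17% ± 2.9 of the vascular totals (SD, n = 6 each). Those lower in the cap held 15.9% ± 2.82 of the cap totals and 70.1% ± 4.03 of the vascular totals. These shares describe the classes that the comparison itself chose. For 5165 transcripts (10.4%) the 95% confidence interval of the difference lay within 1.5-fold in either direction. They held 8.58% of the cap reads and 10.2% of the vascular reads on the CPM scale.

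Although the calls were nearly balanced, the large differences were not. At 16-fold or more, 1970 transcripts were higher in the cap (3.97% of those tested) and 788 were higher in the vascular area (1.59%). At 64-fold or more, the counts were 654 and 75, and at 256-fold or more, 203 and 4. At 2-fold or more the counts were 13503 higher and 13906 lower. The cap kept the longer tail under each setting compared, but its lead changed with the setting. It shrank where low values were less damped by the pseudocount, and it also moved with the scaling. With a pseudocount of 0.1 the counts at 16-fold were 3768 and 2263, and by edgeR's quasi-likelihood test on the recovered reads they were 4839 and 3568. At 256-fold edgeR counted 1830 and 624. With each column divided by its own total, the counts were 1788 and 989 at 16-fold and 183 and 8 at 256-fold. Median-of-ratios scaling gave 2016 and 729 at 16-fold.

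**Figure D1:**
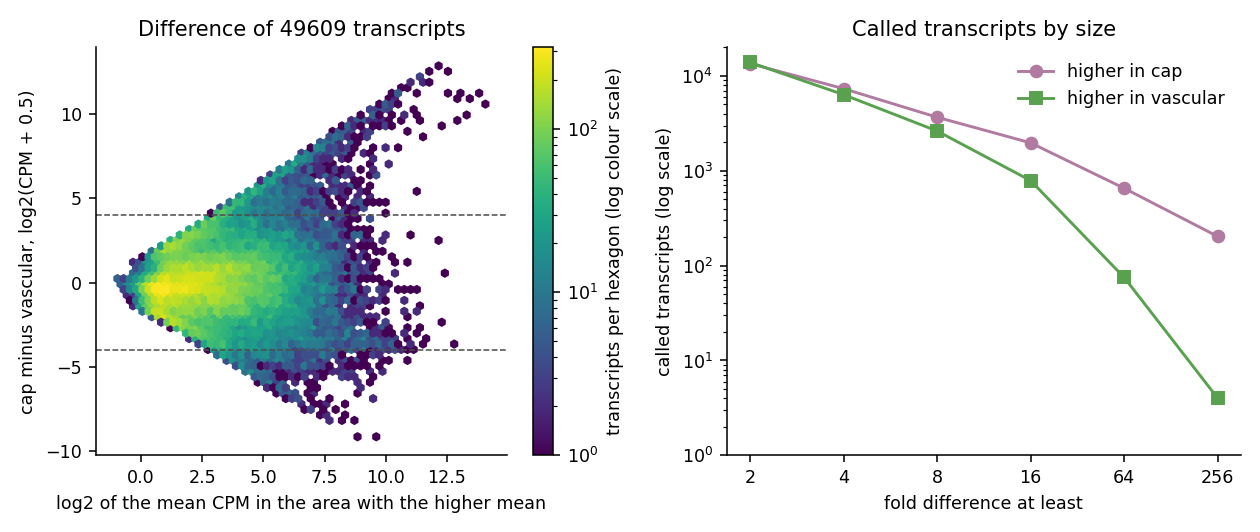
Left, the mean cap minus vascular difference (log2 of CPM + 0.5) of each tested transcript against the log2 of its mean CPM in the area where it was higher, as hexagons coloured by transcript number, with dashed lines at 16-fold. Right, the number of called transcripts at or beyond each fold (log axis): the directions are close at 2-fold (13503 and 13906) and part to 203 and 4 at 256-fold.

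The lead of the cap was widest among the transcripts with most reads. Of 70 transcripts that were higher in the cap and had a mean of at least 1000 CPM there, 60 were called at 16-fold or more, and their median absolute difference was 10.3 on the log2 scale. Of 58 transcripts that were higher in the vascular area at that level, 4 were, with a median of 3.32. Between 100 and 1000 CPM the shares at 16-fold were 36.4% of 1352 and 15.4% of 1250 transcripts. Between 10 and 100 CPM they were 14.6% of 9263 and 7.04% of 7937. Between 1 and 10 CPM they were 0.529% of 12862 and 0.2% of 16508, a level at which the pseudocount keeps most differences below 16-fold. These bins follow read numbers, which also grow with transcript length, so they do not rank genes by expression.

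The largest difference toward the cap chosen by the naming rule was that of pp_136778. Its cap values ran from 3058 to 6349 CPM with a median of 4191, and its vascular values from 0 to 0.229 CPM with a median of 0.0688. No value came near the other group: 25 reads in all were found in the 6 vascular libraries, against 1155591 in the cap. The difference was 12.85 ± 0.177 on the log2 scale (SE, adjusted p = 1.9e-09, limma), and the ratio of the means was about 52980. The transcript was not silent elsewhere. It had 133 ± 72.9 CPM in the cortex and 3.27 ± 5.34 CPM in the meristem (SD, n = 6 each), and its lowest cortex value of 67.1 CPM lay above its highest meristem value of 14.1 CPM. The lowest meristem value, 0.384 CPM, was above the highest vascular one, so the 4 areas formed an order without overlap, from cap to cortex to meristem to vascular tissue.

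The second, pp_181420, ran from 2332 to 4624 CPM in the cap with a median of 3005 and from 0 to 0.0928 CPM in the vascular area, where 11 reads were counted in all. The groups were again fully apart, and the difference was 12.54 ± 0.158 (SE, adjusted p = 1.86e-09, limma). Its cortex mean was 22.7 ± 23.6 CPM and its meristem mean 5.46 ± 6.32 CPM (SD, n = 6 each), and these areas did overlap, from 6.08 to 68.1 and from 0.154 to 13.6 CPM.

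In the other direction, pp_188694 had 482 to 982 CPM in the vascular area with a median of 887, and 0 to 4.92 CPM in the cap with a median of 0.522. The lowest vascular value was far above the highest cap value. The difference was -9.13 ± 0.305 (SE, adjusted p = 7.7e-08, limma). The cortex had 216 ± 70 CPM and the meristem 15 ± 13.6 CPM (SD, n = 6 each), so the cortex again lay above the meristem, whose lowest value of 3.27 CPM overlapped with the cap. Within the cap, the 3 nitrate libraries (0.872 to 4.92 CPM) were above the 3 KCl libraries (0 to 0.173 CPM). The area difference was -10.31 with KCl and -7.95 with nitrate, and the change of that difference, 2.36 ± 0.61, had an adjusted p of 0.61 (limma).

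The transcript pp_227588 had 129 to 650 CPM in the vascular area with a median of 531. In the cap, 5 of 6 libraries had at most 0.0388 CPM, while replicate 3 with nitrate had 3.49 CPM from 151 reads. The groups did not overlap, and the difference was -8.99 ± 0.422 (SE, adjusted p = 4.2e-07, limma). Its cortex values were scattered, from 0.844 to 170 CPM, and overlapped with both groups, and its meristem mean was 0.337 ± 0.569 CPM (SD, n = 6).

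**Figure D2:**
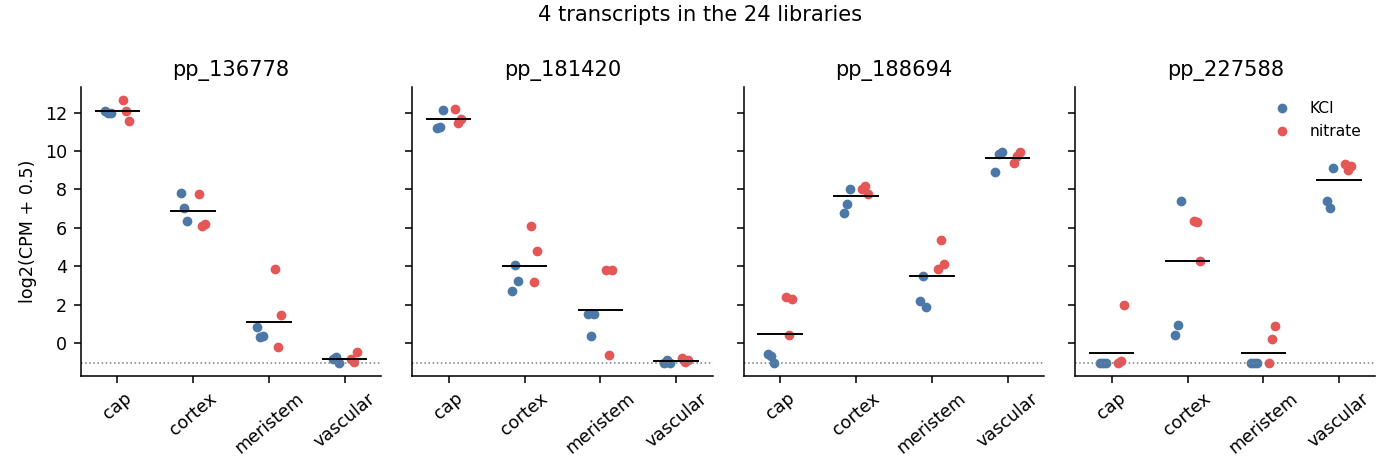
Levels of 4 transcripts (log2 of CPM + 0.5) in all 24 libraries by area, with KCl libraries in blue, nitrate libraries in red and the mean of the 6 libraries of an area as a bar. The dotted line at -1 is the value of 0 reads. The cap and vascular points are apart for each of the 4. The cortex mean lies between them, as for pp_136778 with cortex values of 67.1 to 226 CPM.

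Transcripts nearly absent from one of the areas were also more numerous on the cap side. With at least 10 CPM in each of the 6 cap libraries and at most 3 reads in each vascular library, 220 transcripts were present in the cap and nearly absent from the vascular area. The reverse held for 21. No read at all was found in the 6 vascular libraries for 53 of the 220, and in the 6 cap libraries for 6 of the 21. A library value of 3 reads is 0.0543 to 0.074 CPM here, and such limits cover counting error only. The mean level where present had a median of 50.2 CPM for the 220 and 22.6 CPM for the 21. The 220 made up 1.83% to 3.33% of the cap totals. Their summed CPM in the vascular library with most of it was 0.013% of their sum in the cap library with least. For the 21, the same value in the cap was 0.0563%.

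The pair with the highest cap level among the 220 was pp_235232 and pp_114011. The first had 1547 to 4357 CPM in the cap, a median of 2281, and 2 reads in 1 of the 6 vascular libraries. The second had 1506 to 3918 CPM, a median of 2404, and 1 read in 1 vascular library. They differed outside these areas: pp_235232 had 17.9 ± 15.7 CPM in the cortex and 4.27 ± 4.42 in the meristem, but pp_114011 had 0.246 ± 0.381 and 0.0135 ± 0.0329 (SD, n = 6 each). Of the 21, pp_198905 had 33.3 to 91.2 CPM in the vascular area and at most 3 reads per cap library, and pp_174625 had 20.2 to 85.3 CPM and at most 2 reads. Both were low in the cortex, at 1.4 ± 0.808 and 3.37 ± 2.11 CPM, and lower in the meristem, at 0.106 ± 0.067 and 0.0355 ± 0.053 CPM.

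The 220 transcripts were also counted in the other areas. Of the 220, 60 had at most 3 reads in every meristem library and 2 in every cortex library, and 0 met both limits. Their median level was 0.0532 CPM in the meristem and 1.66 CPM in the cortex. The former is about the value of 3 reads in a meristem library, 0.0513 to 0.0605 CPM, and the part of carry-over between captured areas in these levels was not tested. Only 4 reached 10 CPM in all cortex libraries and 0 in all meristem libraries. Of the 21 vascular ones, 2 had at most 3 reads in all meristem libraries and 0 in all cortex libraries.

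The meristem and the cortex, which did not enter the comparison, place each difference within the root tip. For each transcript called at 2-fold or more, the position of an area was set to 0 at the vascular level and 1 at the cap level on the log2(CPM + 0.5) scale. The meristem lay near the vascular end for both directions. Its median position was 0.102 for the 13503 transcripts higher in the cap (interquartile range -0.016 to 0.341) and 0.0467 for the 13906 lower ones (-0.072 to 0.206). The cortex lay further toward the cap, at 0.277 (0.103 to 0.501) and 0.158 (0.065 to 0.339). Both areas were nearer to the vascular level for 69.4% of the higher and 78.7% of the lower transcripts. For such transcripts the cap lay apart from the other 3 areas. The comparison chose these transcripts, so the positions are a description without a test.

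Among the differences of 16-fold or more, other patterns took a larger share. Of the 1970 transcripts higher in the cap, 1236 (62.7%) were nearer to the vascular level in both other areas. In 425 (21.6%) the cortex was nearer to the cap while the meristem stayed with the vascular area, with median levels of 5.89 in the cap, 3.79 in the cortex, 1.04 in the meristem and -0.43 in the vascular area on the log2 scale. In 86 (4.37%) the meristem but not the cortex was nearer to the cap, and in 223 (11.3%) both were, so that the vascular area stood alone as low. Of the 788 transcripts higher in the vascular area, 473 (60%) were nearer to the vascular level in both other areas. Their medians were 5.77 in the meristem, 5.77 in the vascular area and 5.42 in the cortex against 1.13 in the cap, so the cap stood alone as low. The 225 (28.6%) for which both other areas were nearer to the cap were high in the vascular area alone, with a median of 4.11 in the vascular area and -0.88, 0.12 and -0.36 in the cap, cortex and meristem. In 31 (3.93%) the meristem but not the cortex was nearer to the vascular area, and in 59 (7.49%) the cortex but not the meristem was.

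**Figure D3:**
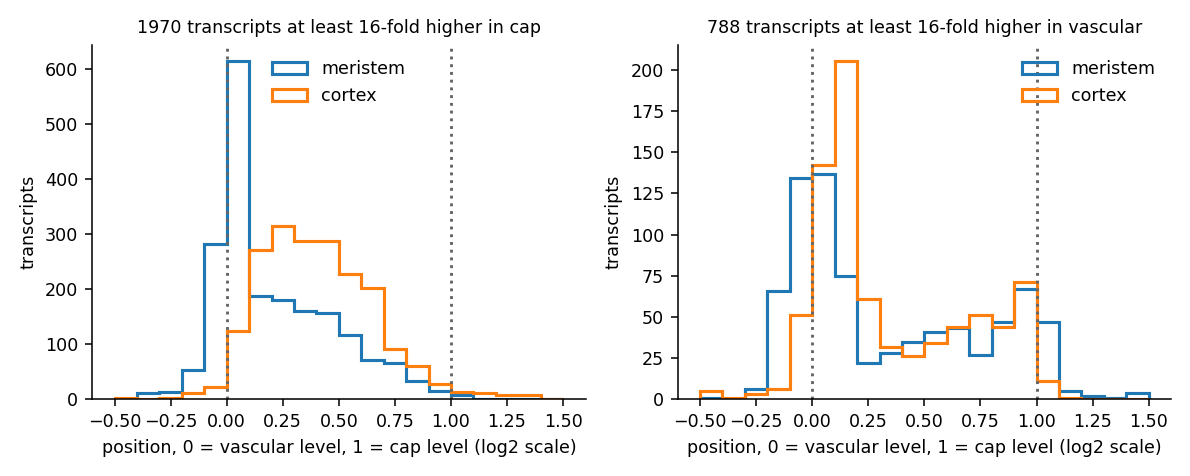
Histograms of the position of the meristem and the cortex between the vascular level (0) and the cap level (1) for the transcripts called at 16-fold or more, 1970 higher in the cap (left) and 788 higher in the vascular area (right). Values beyond the axis are counted in the outermost bins. On the left the meristem peaks at the vascular level and the cortex spreads around a median of 0.383, and on the right both areas have a main peak near 0 and a smaller one near 1.

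The area differences with KCl and with nitrate lay close together. In the same fit, 35811 transcripts were called with KCl (72.2%), 17697 higher (35.7%) and 18114 lower (36.5%), and 34288 with nitrate (69.1%), 16408 higher (33.1%) and 17880 lower (36%). The same rule that chose pp_136778 also named pp_225287 for KCl, with 5770 to 6824 CPM in the 3 KCl cap libraries against 0.13 to 0.823 CPM in the KCl vascular ones. It named pp_236054 for nitrate, with 421 to 689 CPM in the nitrate vascular libraries against 0.44 to 1.43 CPM in the nitrate cap ones. Neither was confined to 1 area. Over both solutions, pp_225287 had 347.9 ± 170.6 CPM in the cortex and 292.5 ± 161.6 CPM in the meristem. For pp_236054 these were 331.8 ± 93.8 and 66.58 ± 36.41 CPM (SD, n = 6 each). Its nitrate cortex values, 320.5 to 473.1 CPM, overlapped with the nitrate vascular ones. The same transcripts also differed with the other solution: the area differences of pp_225287 were 12.58 with KCl and 12.5 with nitrate, and those of pp_236054 were -7.19 and -8.76, with an adjusted p of 0.721 for the change (limma).

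The KCl and nitrate sets share no library, so one can be followed in the other. A fit of the 3 KCl sets alone called 16824 transcripts higher and 16854 lower in the cap. In the 3 nitrate sets, 99.2% of the higher ones were again higher on average, and 94.3% were higher in all 3 sets, compared with 47.5% and 38.9% of all tested transcripts. Of the lower ones, 99.5% were again lower and 96.3% were lower in all 3 sets, compared with 52.5% and 43.3% of all. Median differences held their size, at 1.82 where chosen and 1.68 where followed for the higher ones, and -1.68 and -1.63 for the lower ones.

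Whether nitrate changed the area difference was tested as the difference of both contrasts, 3 sets against 3. No transcript passed by limma (0 of 49609 called, 0%), with 3405 at an unadjusted p below 0.05, which is 6.86% of those tested. By edgeR 0 passed as well, with 2659 at an unadjusted p below 0.05. Other fits did call some: DESeq2 137, and limma on all 24 libraries 125, of which 33 were shared. The median half-width of the 95% interval was 0.793 on the log2 scale. For 20036 of the 49609 transcripts the interval lay within 2-fold in either direction. For the others the interval reached beyond 2-fold.

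The 3 transcripts below were chosen after their values had been seen, and none passed the main test. The smallest p belonged to pp_241879. It had 22.2 to 46.2 CPM in the KCl cap libraries and 1.18 to 2.73 CPM in the nitrate cap libraries, while the vascular area stayed between 0.0543 and 0.633 CPM. The change of the area difference was -3.59 ± 0.284 (SE, adjusted p = 0.0561, limma). Other areas had lower values with nitrate as well: its meristem means were 52.7 ± 13.4 CPM with KCl and 7.59 ± 0.856 CPM with nitrate, and its cortex means 5.76 ± 2.4 and 0.534 ± 0.235 CPM (SD, n = 3 each). The transcript pp_64760 had 40.5 to 165 CPM in the KCl cap libraries and 0.652 to 4.14 CPM in the KCl vascular libraries. Its KCl means were 104.2 ± 64.67 CPM in the cortex and 12.38 ± 10.35 CPM in the meristem (SD, n = 3 each). It had 0 reads in all nitrate libraries of every area. Its change of -4.78 ± 0.473 (adjusted p = 0.121, limma) therefore compares levels with a floor in both areas. In the opposite direction, pp_105269 was highest in the vascular area, at 226 to 237 CPM with KCl and 281 to 362 CPM with nitrate. Its cap values were 1.68 to 3.16 CPM with KCl and 15.7 to 28.9 CPM with nitrate, without overlap. The change was 2.38 ± 0.329 (adjusted p = 0.412, limma). The other areas had it as well. Cortex values were 57.52 to 98.85 CPM with KCl and 129.2 to 142.9 CPM with nitrate, also without overlap. Meristem values were 56.82 to 84.46 and 79.95 to 109.7 CPM.

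**Figure D4:**
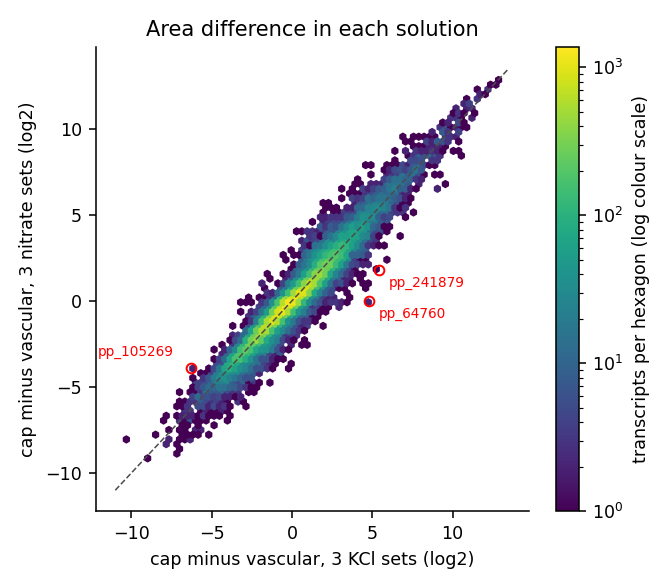
Cap minus vascular difference of each tested transcript in the 3 KCl sets (horizontal) and the 3 nitrate sets (vertical), both as log2 of CPM + 0.5, coloured by transcript number, with the line of equality dashed. The cloud follows the line, and the circled transcripts pp_241879, pp_64760 and pp_105269 lie off it by -3.59, -4.78 and 2.38.

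The 6 sets resembled each other closely. Pearson's r across the tested transcripts, which do not count as replicates, between the differences of any pair of sets was 0.89 to 0.949. It was 0.915 to 0.949 within a solution and 0.89 to 0.942 between solutions. Spread was larger in the cap: the median SD of log2(CPM + 0.5) among 3 libraries was 0.365 with KCl and 0.302 with nitrate in the cap, and 0.231 and 0.222 in the vascular area. The median SD of the set differences was 0.412 with KCl and 0.338 with nitrate.

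The sets differed most in how far vascular transcripts were down in the cap. Per set, 1952 to 2463 transcripts were at least 16-fold higher in the cap, a narrow range, while 523 to 1727 were at least 16-fold lower. The highest of these was KCl set 3, whose cap library also had the most transcripts with 0 reads (5.163%). The 788 vascular-high transcripts held 0.0938% of the total of that cap library, 0.55% in the cap of KCl set 2 and 0.173% to 0.341% in the other 4. Without either library of KCl set 3, 1926 transcripts were at least 16-fold higher in the cap and 629 lower. Cap signal in the vascular libraries was steadier. The 1970 cap-high transcripts held 34% ± 3.09 of the cap totals (SD, n = 6) and 0.195% to 0.359% of the vascular totals. With nitrate the latter share was 0.304% ± 0.0521 and with KCl 0.226% ± 0.0404 (SD, n = 3 each). An exact permutation test, two-sided, gave p = 0.2, where 0.1 is the smallest possible. The part of these residual levels in the differences between sets was not tested.

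**Figure D5:**
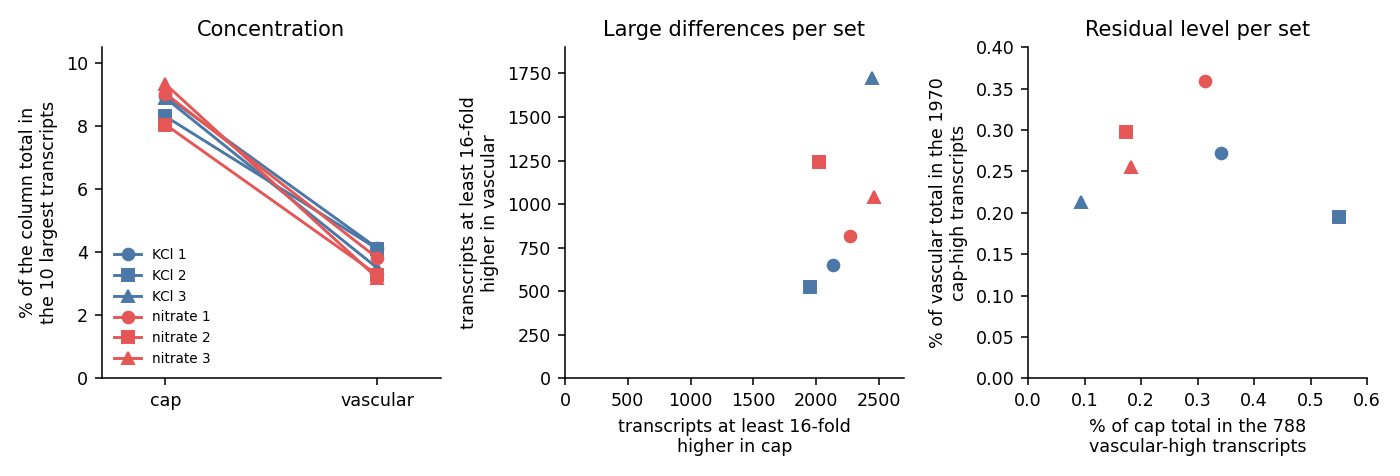
The 6 root-tip sets by solution (colour) and experiment number (symbol). Left, the percentage of the column total in the 10 largest transcripts of each library, with matched libraries joined; middle, the number of transcripts at least 16-fold higher in each area; right, the share of each cap total in the 788 vascular-high transcripts against the share of each vascular total in the 1970 cap-high ones. KCl set 3 has the most transcripts at least 16-fold higher in the vascular area, 1727. Its cap library has the lowest share in the 788 vascular-high transcripts, 0.0938%.

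Neighbouring IDs mostly shared their direction. Among 33129 pairs of tested transcripts with consecutive numbers, both were called in 24423, and in 91.1% of those the direction was the same, where the balance of calls alone would give 50%. Of 1221 such pairs with both members at 16-fold or more, 10 went in opposite directions. Across all pairs Pearson's r of the differences was 0.777, a description of pairs that may be copies or isoforms sharing reads. Counts of transcripts in this comparison are therefore not counts of independent genes.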

How the data were processed

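Per the labels' protocols, cDNA was amplified with a low-input kit from RNA with an integrity number above 7 and sequenced as paired-end reads of 150 bp. BWA and bcl2fastq are named in the submitters' processing notes. Counter, reference and scaling: not given in the sources used here. A scaled count signal named CPM fills the table the authors deposited, with column totals of 894186 to 1173830 in these 12 libraries rather than a common total. In each column 100% of values were whole multiples of 1 read, within 0.02 reads, which gave the recovered reads. The table held 0 columns outside the 24 samples.

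The 49609 transcripts that reached 1 CPM in 3 or more of the 12 libraries were tested (1602 were left out) as log2(CPM + 0.5), a scale that understates changes of low values, with limma 3.58.1 in R 4.3.3 (variance trend, Benjamini-Hochberg adjustment over all tested, threshold 0.05). The model had 1 block per root-tip set and an area effect per solution. Deviations from group means correlated at 0.269 to 0.404 between cap and vascular libraries of the same number in all 6 pairs, and at -0.304 to -0.0386 in the 12 other pairs. Deviations cancel within a group of 3 libraries, so positive correlations of same-number pairs push the other pairs toward negative values. The pairing followed solution and experiment number. The labels do not say what a number shares or whether the experiments used separate cultures. A p-value therefore reflects only the spread among these samples, which may be technical. No replicate pair looked like 1 library deposited again (chi-square per transcript of 35.2 to 170 over 12 pairs). Counts were simulated with the vascular means in both areas, and 43823 transcripts passed the same filter on low values. Among these, only 99 had been changed by 1 and 100 by 2 on the log2 scale. There limma recovered 74% of changes of 2 and 21.2% of changes of 1, with 11.2% false calls among 107. In the data 79.4% of transcripts were called, so these rates do not describe those calls.

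The test assumed plain CPM and was kept for this signal. Named transcripts were, per contrast, at most 2 per direction with the largest difference among those called, with all sets in 1 direction and a mean of at least 10 CPM in the higher area, skipping numbers within 5. For near-absent ones the highest mean was used. Alternatives were edgeR 4.0.16 and DESeq2 1.42.0 on recovered reads, pseudocounts, filters, scalings and left-out libraries. The libraries and rules were chosen with earlier results of these data known.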

Additional observations from a re-analysis of the deposited data

Results flagged for a closer look

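A single library stood apart from the other 5 of its area in 4 of 34 groups of 6 examined, by the size of its gap relative to the range of the group. For continuous values, chance alone gives about 1 in 20 groups. A group with reads in a single library is flagged by construction, and the groups share libraries. The number of flags can therefore not be set against that rate. In the cap, the share of transcripts with 0 reads was 5.163% in KCl replicate 3 and 2.91% to 3.62% in the other libraries. The transcript pp_227588 had 3.494 CPM in the cap library of nitrate replicate 3 and 0 to 0.0388 CPM in the other cap libraries. The remaining cases were single low values against 0: pp_235232 had 0.0433 CPM in vascular KCl replicate 2, and pp_114011 had 0.0181 CPM in vascular KCl replicate 3, with 0 in the other 5 vascular libraries of each.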

How the results depend on the processing

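The count of 39412 called transcripts stayed within 1.5 times under every other scaling, filter, pseudocount and tool run at the same call rule, from 35698 with 1 CPM required in 6 of the 12 libraries to 41483 with all 24 libraries. Without the replicate block it was 38007, and the block changed no call of the transcripts named. Leaving out a library, which also idles its partner, gave 36943 to 38320. Division of each column by its own total, added after seeing the data, moved the median difference of all transcripts from -0.09 to -0.28 on the log2 scale, and quantile normalization to -0.16. Calls only beyond 2-fold, also added later, numbered 20141. For the change of the area difference with nitrate, 0 calls became 125 with all 24 libraries, 137 by DESeq2, 1 with the filter of 6 libraries and 1 with columns divided by their totals; without a library it was 0 to 2, the 2 arising without KCl replicate 1 of either area. The cause was not tested. At 16-fold, the 1970 higher and 788 lower became 4839 and 3568 by edgeR, 4905 and 3697 by DESeq2 and 3768 and 2263 with a pseudocount of 0.1; with a pseudocount of 1, the lower became 476. Columns divided by their totals gave 1788 and 989, and left-out libraries gave 1926 to 2062 and 629 to 978. Nearly absent transcripts, 220 and 21, were 53 and 6 with 0 reads allowed, 445 and 58 with 10 reads and 341 and 61 from 5 CPM, which follows from the limits themselves. The 10 transcripts named for an area difference kept direction and call under each alternative that gave a value. The 3 named for a change with nitrate kept their direction, but passed with all 24 libraries, pp_241879 and pp_105269 also by DESeq2, pp_241879 with the filter of 6 libraries and with columns divided by their totals, and pp_64760 without KCl replicate 1 of either area. Adjusted p ranged over the alternatives from 1.37e-05 to 0.696 for pp_241879, from 0.00707 to 1 for pp_64760 and from 1.66e-06 to 0.901 for pp_105269. Low levels limit the fold that can be seen: 3 reads are 0.0543 to 0.074 CPM.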
